A study of Arabidopsis thaliana with 12 samples.

Results

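AT3G04650, AT1G16080, AT3G09250, AT1G62780, AT1G73120 and AT5G19750 are 6 protein-coding genes of Arabidopsis thaliana that the gene table used here knows by their locus tag alone, so no role is given to any of them below. They were taken as 6 of the 691 genes on 692 probes with exactly 1 annotated gene each, on an array of 3439 probes. Each had 1 such probe, and none was on a probe shared by several genes. They were chosen by their deposited intensities, which were far lower in the toc90 mutant than in the wild type. The difference between the groups is therefore given as a description, with no test, for all 6.

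The samples were total RNA, measured in 1 channel per sample, of 6 readings of the toc90 mutant and 6 readings of the wild type (WT), both in the ecotype Columbia 0. Each group was numbered 1 to 6. Per the labels, the mutant has impaired import of proteins through the outer chloroplast envelope. The labels used here name no allele, tissue, age or growth condition, and nothing in them says that readings came from separate plants, so the spread between them may be technical.

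As background, most chloroplast proteins are encoded in the nucleus, made in the cytosol with an N-terminal transit peptide and taken up through the TOC complex of the outer envelope and the TIC complex of the inner one. TOC90 belongs to the TOC159 family of GTPase receptors that bind these precursor proteins at the surface of the chloroplast. Mutants of this machinery are commonly studied at the transcript level, because nuclear genes for chloroplast proteins respond to the state of the organelle. Whether the 6 genes encode chloroplast proteins was not analysed here.

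The deposited intensities ran from 0 to 100, on a scale of unknown origin. Between 20.3% and 33.4% of all probes were at 0 in the toc90 readings, against 13.5% to 17.3% in the WT readings. The median over all probes was 0.0593 to 0.0687 in toc90 and 0.151 to 0.157 in WT, while the mean was 0.736 to 1.06 in toc90 and 0.768 to 1.03 in WT. The median was thus lower and zeros were more frequent in the mutant, although some probes with a WT mean near 0 were higher in it. The median ratio of toc90 to WT group means over the 3165 probes with a WT mean above 0 was 0.608. The part of this lower median in the results below was not tested. Neighbouring numbers were alike in their mean over all probes. In toc90 it was 0.756 and 0.755 for 1 and 2, 1.062 and 1.057 for 3 and 4, and 0.736 and 0.736 for 5 and 6. In WT it was 0.806 and 0.783, 1.022 and 1.033, and 0.781 and 0.768. Probe by probe, on deviations from group means of quantile-normalized log2 values, neighbouring readings correlated at 0.16 to 0.21 in WT. In toc90 these correlations were -0.06, -0.15 and 0.03. The labels do not say whether neighbouring numbers are repeats of 1 sample, so n counts readings. Of 20 fixed genes of green tissue, 3 were on single-gene probes (PSAN, PSBY and PSBW, subunits of the photosystems). Their summed intensity was 42.7 to 76.4 in toc90 and 47.5 to 75.2 in WT, and none was at 0 in all readings. Mean intensity in toc90 and WT was 9.06 and 6.31 for PSAN, 2.80 and 3.16 for PSBY, and 44.7 and 49.1 for PSBW. PSBW thus makes up most of the sum. No gene of the fixed root list or of the flower and seed list was on a single-gene probe.

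All 6 genes had a lower mean in toc90, at 3.57% to 14.4% of the WT mean, and in each of them every toc90 reading lay below every WT reading. The same separation held for 19.9% of all 3439 probes and for 21.5% of the 692 single-gene probes. The opposite separation, every toc90 reading above every WT reading, held for 1.4% of all probes. In bulk RNA, fewer cells of a type and less RNA per cell cannot be told apart.

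**Figure D1:**
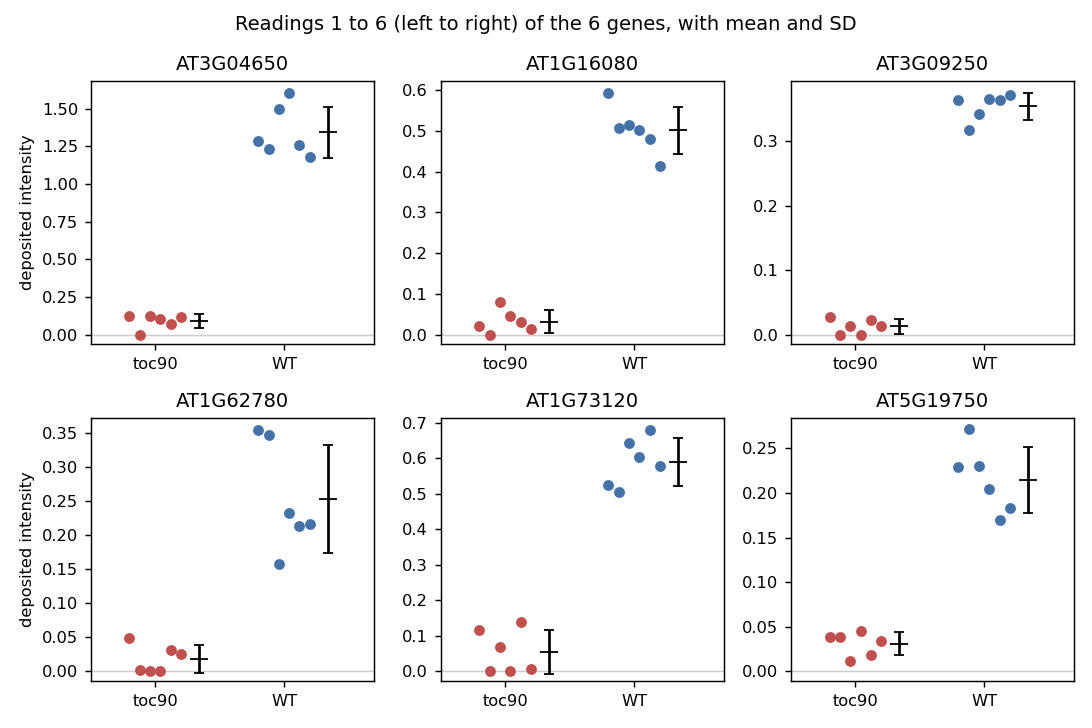
Deposited intensity (linear axis) of the 6 genes in each reading, toc90 left and WT right, with points in the order of reading numbers 1 to 6 and a bar for the mean ± SD. In every panel the toc90 points lie near 0 and below all WT points, and the WT points of AT1G62780 spread most relative to their mean.

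AT3G04650 was the gene with the widest gap between the groups in intensity units. Its toc90 readings 1 to 6 were 0.124, 0, 0.123, 0.106, 0.0730 and 0.120, and its WT readings were 1.284, 1.233, 1.5, 1.604, 1.259 and 1.181. In toc90, 5 of the 6 readings lay close together and reading 2 was listed at 0. In WT, numbers 3 and 4 were the highest. The mean was 0.0908 ± 0.0485 in toc90 and 1.34 ± 0.168 in WT (SD, n = 6 each), a toc90 level of 6.76% of WT. The lowest WT reading was 9.53 times the highest toc90 reading.

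AT3G09250 had the lowest ratio of the 6 genes and the most even WT readings. Its toc90 readings were 0.0276, 0, 0.0135, 0, 0.0221 and 0.0128, and its WT readings were 0.364, 0.318, 0.342, 0.365, 0.365 and 0.372. The coefficient of variation was 88.9% in toc90 and 5.82% in WT. Means were 0.0127 ± 0.0113 in toc90 and 0.354 ± 0.0206 in WT (SD, n = 6 each), so that toc90 stood at 3.57% of WT. Readings 2 and 4 of the mutant were listed at 0, and the lowest WT reading was 11.5 times the highest toc90 reading.

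AT1G16080 stood at 0.0205, 0, 0.0811, 0.0445, 0.0317 and 0.0132 in toc90, against 0.593, 0.506, 0.515, 0.501, 0.480 and 0.413 in WT. Reading 3 was the highest of the mutant and reading 2 was at 0, so the toc90 values had a coefficient of variation of 89.7%, while that of WT was 11.6%. The group means were 0.0318 ± 0.0286 in toc90 and 0.502 ± 0.0582 in WT (SD, n = 6 each), with toc90 at 6.35% of WT. Between pairs of numbers the ratio of toc90 to WT was 0.0186 for 1 and 2, 0.124 for 3 and 4, and 0.0503 for 5 and 6.

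AT1G73120 had mutant readings that disagreed within every pair of neighbouring numbers. They were 0.117, 0, 0.0679, 0, 0.139 and 0.00613, against 0.525, 0.504, 0.642, 0.603, 0.680 and 0.579 in WT. Within each pair of neighbouring numbers, 1 toc90 reading was well above 0 and the other was at or near 0. The mean was 0.0550 ± 0.0624 in toc90, where the SD exceeds the mean, and 0.589 ± 0.0673 in WT (SD, n = 6 each), a toc90 level of 9.34% of WT. The groups did not overlap, and the lowest WT reading was 3.63 times the highest toc90 reading.

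AT1G62780 was the gene whose WT readings varied most, with a coefficient of variation of 31.3%. Its toc90 readings were 0.0487, 0.00209, 0.0001996, 0, 0.0308 and 0.0256, and its WT readings were 0.355, 0.348, 0.158, 0.233, 0.215 and 0.217. Numbers 1 and 2 of WT were above the other 4, which ran from 0.158 to 0.233, and numbers 2, 3 and 4 of toc90 were at or close to the floor. Its mean was 0.0179 ± 0.0203 in toc90 and 0.254 ± 0.0795 in WT (SD, n = 6 each), with toc90 at 7.03% of WT. The gap of 0.109 between the highest toc90 and the lowest WT reading was the narrowest of the 6 genes.

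AT5G19750 was the only one of the 6 genes with no reading at 0 in the mutant. The toc90 readings were 0.0384, 0.0379, 0.0117, 0.0450, 0.0179 and 0.0340, with WT at 0.229, 0.272, 0.230, 0.205, 0.170 and 0.183. Its toc90 coefficient of variation of 42.3% was the lowest of the 6, and its ratio was the highest. The mean was 0.0308 ± 0.0130 in toc90 and 0.215 ± 0.0369 in WT (SD, n = 6 each), so that toc90 stood at 14.4% of WT. Readings 3 and 5 were the lowest in the mutant, and readings 5 and 6 the lowest in WT.

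Zeros were shared unevenly among the mutant's readings. Over the 6 genes, 7 of 36 toc90 values were listed at 0, against 0 of 36 in WT. Reading 2 held 4 of them (AT3G04650, AT1G16080, AT3G09250 and AT1G73120) and reading 4 held 3 (AT3G09250, AT1G62780 and AT1G73120). The share of all probes at 0 was 26.7% in reading 2 and 33.4% in reading 4, but reading 3, with 31.9% of all probes at 0, had none of the 6 genes there. Reading 1, which neighbours reading 2 in number, had the highest median of the 6 genes, at 13.6% of their WT means, where the median of reading 2 was 0.

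Single readings also moved the ratios. Over the 12 ways of leaving out 1 reading, the ratio of toc90 to WT stayed between 0.0627 and 0.0811 for AT3G04650, 0.0438 and 0.0762 for AT1G16080, and 0.0273 and 0.0429 for AT3G09250. It stayed between 0.0461 and 0.0844 for AT1G62780, 0.0648 and 0.112 for AT1G73120, and 0.130 and 0.161 for AT5G19750. For AT1G62780 alone, 1 reading moved the ratio by over 1.5 times, to 0.0461 without toc90 reading 1, against 0.0703 with all readings.

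The ratios depended on how the readings were put on a common scale, although none of the settings tried brought a gene to 1. The median ratio of the 6 genes was 0.0690 as deposited, 0.152 after quantile normalization of the intensities and 0.174 after scaling to a common median. When a constant was instead added to or taken from each reading so that all medians were equal, a setting chosen after seeing the data, the median ratio was 0.188. AT3G04650, whose WT level is far above the 0.0920 by which mean column medians were lower in toc90, then stood at 0.105. AT1G16080 stood at 0.171, AT1G73120 at 0.186, AT3G09250 at 0.190, AT1G62780 at 0.307 and AT5G19750 at 0.455. In each of these 3 settings, every toc90 reading of all 6 genes still lay below every WT reading. With the constant added, that separation held for 5.99% of all probes. In that setting limma called 330 of 2551 tested probes (12.9%) lower, among them the 6 genes, and more, 420, higher.

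**Figure D2:**
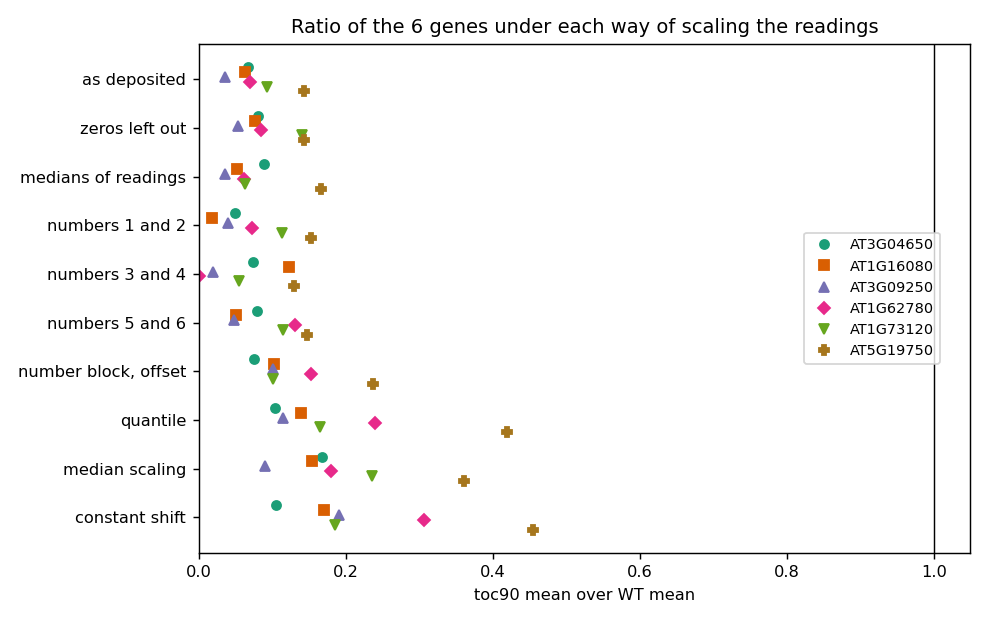
Ratio of the toc90 mean to the WT mean (horizontal axis, linear, line at 1 for equal means) of the 6 genes under each way of handling the readings, listed down the page. The points lie left of 1 in every row, AT5G19750 is farthest right in each of them, and the 3 rescaled settings at the bottom lie to the right of the deposited values.

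Among all probes, the 6 genes lay in the lower part of the cloud rather than apart from it. The toc90 mean minus the WT mean was -1.25 for AT3G04650, -0.534 for AT1G73120, -0.470 for AT1G16080, -0.342 for AT3G09250, -0.236 for AT1G62780 and -0.184 for AT5G19750. The median of this difference over all probes was -0.0469, and its 5th percentile was -0.446. AT3G04650, AT1G73120 and AT1G16080 were beyond that percentile. For AT5G19750, 561 of all 3439 probes had a larger drop. Of the 643 single-gene probes with a WT mean above 0, a lower ratio than that of AT3G09250 was seen for 21, and a lower ratio than that of AT5G19750 for 63.

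**Figure D3:**
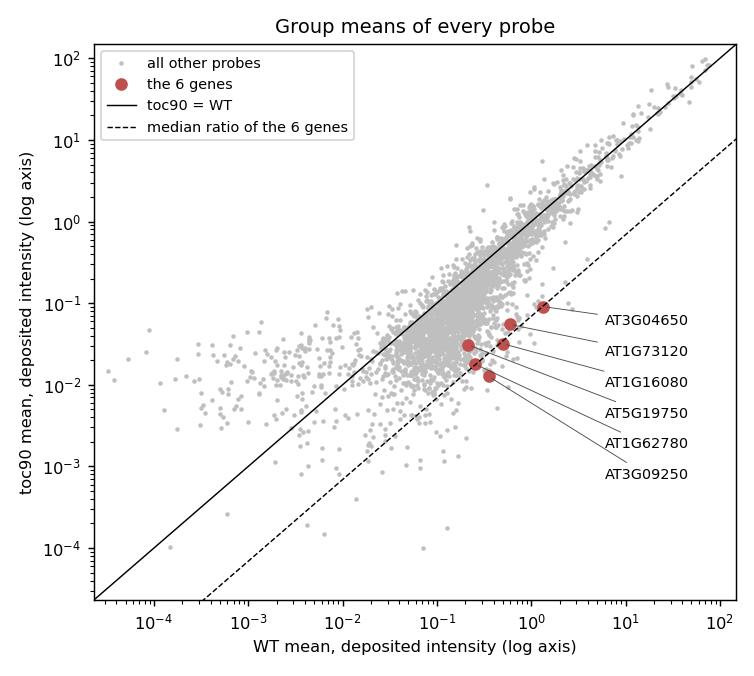
Mean of the 6 toc90 readings against the mean of the 6 WT readings for every probe (deposited intensity, both axes logarithmic), with the 6 genes in red, a solid line for equal means and a dashed line for the median ratio of the 6 genes, 0.0690. The 365 probes with a mean of 0 in either group are left out. Probes below a WT mean of about 1 lie mostly under the solid line, but some at the lowest WT means lie above it.

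The linear model over the whole table, limma on log2 intensities with quantile normalization and zeros left out, called 17% of 2687 tested probes lower in toc90 and 6.92% higher at an adjusted p under 0.05. All 6 genes were tested and were among the lower calls, with log2 differences of -4.10 (AT1G62780) to -2.07 (AT5G19750). This count is a description, since the contrast chose the genes. With readings of neighbouring numbers averaged, 5 of the 6 genes were called lower, all but AT1G62780, where 2.87% of all tested probes were. With each zero replaced by the smallest positive value in the table, 1.23e-06, limma called 0 of the 6 lower, with 5 at an unadjusted p under 0.05. In that setting 3.46% of all tested probes were called lower, and the median log2 difference of the 6 genes was -5.94, against -3.35 with zeros left out. The replacing value lies far below every nonzero toc90 reading of the 6 genes. An offset of 0.0274 added to every value before log2 also keeps zeros. With it, all 6 genes were among the 265 of 2687 tested probes called lower. Leaving out toc90 reading 2 or any 1 WT reading ended the call of AT1G62780 and of no other of the 6.

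The wider set of genes on the array that the gene table knows by locus tag alone was also compared. Other single-gene probes known by locus tag alone numbered 593, and 93 carried a gene symbol. The median ratio of toc90 to WT was 0.561 over the 548 locus-tag probes with a WT mean above 0 and 0.732 over the 89 such probes with a symbol. Lower calls were 86 of 459 tested (18.7%) among locus-tag probes and 9 of 73 (12.3%) among those with a symbol, and higher calls were 23 (5.01%) among locus-tag probes and 5 (6.85%) among those with a symbol. The median WT mean was 0.147 for locus-tag probes and 0.207 for those with a symbol, so the lists also differ in level, and the difference between them was not tested. Of 7 lists drawn from words in gene names, 4 had no single-gene probe and 3 had 1 each, which was not called. They were ETFQO, an electron-transfer flavoprotein oxidoreductase, which was too often at 0 to be tested (0.00240 ± 0.00587 in toc90 and 0.0281 ± 0.0156 in WT), CHLM, a methyltransferase of chlorophyll synthesis (0.248 ± 0.102 in toc90 and 0.339 ± 0.0603 in WT), and CHL, a chloroplast lipocalin (0.0483 ± 0.0576 in toc90 and 0.0392 ± 0.0288 in WT, SD, n = 6 each). The 3 locus-tag genes with the highest mean were not called, with intensities of 79.5 ± 20.3 in toc90 and 50.5 ± 9.81 in WT for AT4G22830, 58.6 ± 5.38 in toc90 and 49.5 ± 12.5 in WT for AT4G31530, and 37.5 ± 14.1 in toc90 and 38.0 ± 15.1 in WT for AT2G27290 (SD, n = 6 each).

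**Figure D4:**
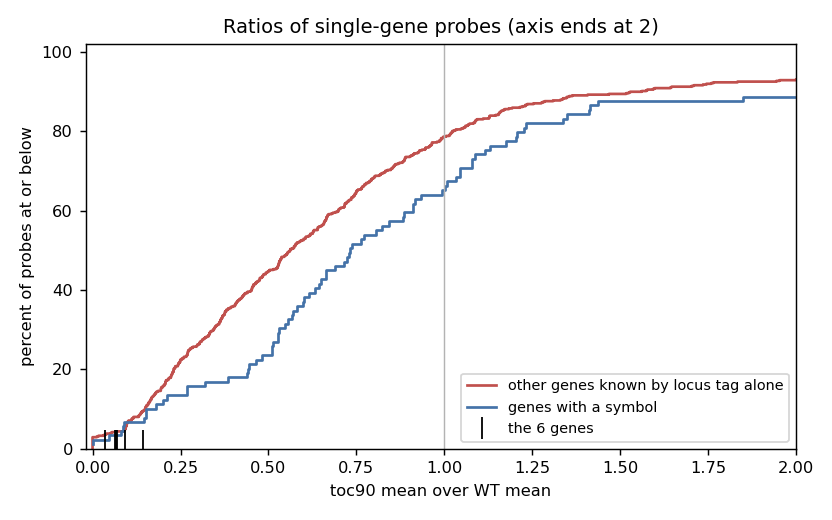
Cumulative percent of single-gene probes (vertical axis) at or below each ratio of the toc90 mean to the WT mean (horizontal axis), for other genes known by locus tag alone and for genes with a symbol, with ticks for the 6 genes. The 6 ticks lie between 0.0357 and 0.144, where both curves are low, and 48 probes with a ratio above 2 lie outside the axis.

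Single-gene probes whose WT mean lay within the range of the 6 genes, 0.215 to 1.34, numbered 214 without them. Their median ratio was 0.577, and 17 of them had a ratio at or below that of AT5G19750. Every toc90 reading lay below every WT reading in 37.9% of these 214 probes, and 29.5% of the 210 tested were called lower. Complete separation of the groups was therefore common at the WT level of these genes. The 3 with the highest mean, AT3G15900, AT4G13550 and AT1G70200, had ratios of 1.23, 1.34 and 1.15 and were not called.

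Genes whose readings ranked most like those of each of the 6 genes were sought among other single-gene probes by Spearman's rho over the 12 readings. Because both groups enter, a large part of each rho is the group difference itself, and readings share their scaling. AT5G49800 (rho 0.96) and AT5G05400 (0.92) were nearest to AT3G04650, AT4G39690 (0.96) and AT5G35100 (0.94) to AT1G16080, and AT5G14910 (0.94) and AT1G01080 (0.91) to AT3G09250. AT4G24930 (0.94) and AILP1 (0.94) were nearest to AT1G62780, AT3G17550 (0.95) and AT5G42680 (0.95) to AT1G73120, and AT3G06870 (0.97) and AT1G50000 (0.96) to AT5G19750. These genes differed widely in the size of their difference. AILP1 had means of 0.0252 ± 0.0297 in toc90 and 0.554 ± 0.0522 in WT, while AT4G39690 had 2.78 ± 0.807 in toc90 and 4.18 ± 0.651 in WT (SD, n = 6 each). AT1G01080 stood at 0.0678 ± 0.0425 in toc90 and 0.702 ± 0.120 in WT (SD, n = 6 each). Among the 6 genes themselves the highest rho was 0.91, between AT3G09250 and AT1G73120, which were both at 0 in readings 2 and 4 of toc90, and the lowest was 0.62, between AT3G09250 and AT5G19750.

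The place of the probes in the array's numbering was recorded beside these values. In blocks of 96 consecutive probe IDs taken in runs of 3, a grouping drawn up on the same data, 0 of the 6 genes were in the first place, with 3 in the second (AT3G04650, AT3G09250 and AT1G73120) and 3 in the third (AT1G16080, AT1G62780 and AT5G19750). AT1G16080 and AT5G19750 shared a block. The other probes of the genes' own blocks had median ratios of toc90 to WT of 0.349 (AT3G09250), 0.388 (AT1G73120), 0.487 (AT3G04650), 0.489 (AT1G16080 and AT5G19750) and 0.602 (AT1G62780). These medians were all below the 0.608 of all probes, and each gene's ratio was below the median of its block. The share of all probes in each place is not given here, so the counts by place have no baseline. The part of the place on the array in the results was not tested.

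By their locus tags the genes lie on chromosomes 1 (AT1G16080, AT1G62780 and AT1G73120), 3 (AT3G04650 and AT3G09250) and 5 (AT5G19750). Of the 24 nearest protein-coding neighbours, 2 on each side of each gene, 1 was on a single-gene probe. It was AT1G62760, near AT1G62780, with a mean intensity of 0.0224 in toc90 and 0.0321 in WT, both close to the floor. AT1G73110, directly next to AT1G73120, was on 2 probes that also list another gene, so its own level was not read from them. The other 22 neighbours were on no annotated probe.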

How the data were processed

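The authors deposited 1 table of single-channel array intensity for 3439 probes and 12 readings. How they scanned, background-corrected and scaled it is not given in the sources. Probes were named through the platform annotation and the RefSeq gene table of TAIR10.1, used for names and gene order only, which matched 690 of the 692 single-gene probes.

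Means and ratios used deposited values with zeros included. The background fit used log2 values with zeros as missing, quantile normalization and at least 3 values in each group. It was run in limma 3.58.1 under R 4.3.3 (two-sided, Benjamini-Hochberg adjusted p under 0.05 over 2687 probes). The fit took all readings as independent. No formal test of this was run, but same-numbered readings of the 2 groups correlated at 0.06 to 0.17, as given in the last section. A trial on simulated data had independent readings, no zeros and the WT spread in both groups. That trial therefore says nothing on zeros, unequal spread or related readings. Python 3.11.15 with matplotlib 3.10.9 drew the figures.

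The 6 genes, the lists and the tests were chosen with earlier results of these data known. Other genes named were the 2 most alike of each of the 6 (at most 3 zeros in 12 readings). The up to 3 brightest of each list were also named. AT1G62760 and the genes of the fixed marker lists on single-gene probes were named after their values were seen. Word lists used gene symbols and synonyms, since descriptions were not used here. Planned promoter motifs were not analysed here.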

Additional observations from a re-analysis of the deposited data

How the results depend on the processing

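Over all probes, 643 were called, against 353 with cyclic loess, 981 with values as deposited, 260 with zeros replaced by the smallest positive value, 418 with the number as a replicate block and 107 with neighbouring readings averaged (limma). Leaving out 1 reading gave 475 to 620 calls. Of the calls, 186 were higher and 457 lower, against 431 and 339 with median scaling, 180 and 173 with cyclic loess, 85 and 896 as deposited, 167 and 93 with zeros replaced, 241 and 265 with an offset, 130 and 485 without the dimmest 25% of probes, and 420 and 330 with a constant added to each reading. These counts rest on different numbers of tested probes. Cyclic loess tested 1474 probes, the fit without the dimmest 25% tested 2015, and the fit with the constant tested 2551. With 1 reading left out, 2500 to 2674 were tested, and 2687 in the main fit and all remaining ones. The lower count with cyclic loess is therefore not by itself a smaller share of calls. Same-numbered readings of the 2 groups correlated at 0.06 to 0.17, on deviations from group means of quantile-normalized log2 values. Across the groups, 12 of 12 readings correlated best with their own number. The labels give no origin for this, and the main fit did not include the number. The replicate block kept 4 of the 6 genes called lower, without AT1G73120 and AT1G62780, where 11.2% of all tested probes were called lower, and the median log2 difference of the 6 genes was -3.33, against -3.35 without it. As a mean over numbers with an offset, a replicate block with no test, the median ratio of the 6 genes was 0.102.

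The median ratio of the 6 genes was 0.0690, against 0.174 with median scaling, 0.152 with quantile normalization and 0.188 with the constant added. It ran from 0.0642 to 0.082 with 1 reading left out. All 126 alternative ratios of single genes were below 1, and 20 moved by more than the toc90 spread. Cyclic loess could be run on AT5G19750 alone, as the other 5 genes hold a zero. Averaging several probes of a gene could not be run, since each gene had 1. The cause of these changes was not tested. Values near the floor of 0 limit the precision of the mutant's levels.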
